A study of Homo sapiens with 6 samples.

Results

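The translation factors described here are the protein-coding genes whose symbols begin with EIF1 to EIF6, EEF1 or EEF2, with the EIF4E-binding proteins included and EIF2AK2 left out. The rule uses names only and no measured value. It found 70 genes among 60651 gene rows, and 64 of them passed the filter on low counts and were tested among 15589 genes.

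The cells were MDA-MB-231, an established human triple-negative breast cancer line with the genotype given as WT. They were exposed for 24 h to AF-EAE, made from the herb Antenoron filiforme by extraction into ethyl acetate, at 75 µg/ml or at 150 µg/ml, or to DMSO, the solvent control. Each of the 3 groups had 2 libraries of total RNA, 6 in all, numbered as biological replicates. No label says that they came from separate cultures, so the p-values reflect only how these libraries scatter, which may be technical. The series title concerns proliferation and the SKP2/P21 axis. The extract is a mixture, and no single agent can be named from these groups.

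Translation initiation begins when EIF2, loaded with GTP and the initiator tRNA, joins the small ribosomal subunit together with EIF1, EIF1A, EIF3 and EIF5. The EIF4F assembly of the cap-binding protein EIF4E, the scaffold EIF4G and the helicase EIF4A brings that complex to the mRNA cap, and the EIF4E-binding proteins compete with the scaffold for EIF4E. Kinases that phosphorylate the alpha subunit of EIF2 block its reloading by EIF2B and so lower initiation. EEF1A then delivers aminoacyl-tRNA, EEF2 moves the ribosome along, and EIF5A relieves stalled elongation. Many of these mRNAs carry a run of pyrimidines at their first base, the 5′ terminal oligopyrimidine or TOP tract, through which mTORC1 signalling is known to govern their translation.

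The start regions of the members carried such tracts and a second motif more often than start regions at large. Both are shown because they are sequence features that the choice of members did not use. The sequences are from RefSeq on GRCh38.p14, whose promoter table matched 56 of the 70 members. The 14 not matched, EIF4EBP1, EIF2S2, EIF3A, EIF3E, EIF3H and EEF1D among them, are absent from all counts of motifs. A tract was counted where the first transcribed base was C and at least 4 pyrimidines followed. It was present in 13 of 56 member genes (23.2%), against 5.14% of all genes in the table. The lines below show some of these genes. Each gives 10 bases before the start and 20 from it on the coding strand, 5′ to 3′, with the tract in capitals.
EEF1A1, chr6:73521013-73521042, minus strand: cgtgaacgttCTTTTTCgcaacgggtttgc
EEF1B2, chr2:206159885-206159914, plus strand: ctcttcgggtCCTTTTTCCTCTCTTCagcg
EEF2, chr19:3985444-3985473, minus strand: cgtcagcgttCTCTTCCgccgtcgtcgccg
EIF3F, chr11:7987327-7987356, plus strand: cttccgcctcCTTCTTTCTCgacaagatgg
EIF3K, chr19:38619178-38619207, plus strand: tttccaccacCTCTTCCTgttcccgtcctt
EIF4A2, chr3:186783567-186783596, plus strand: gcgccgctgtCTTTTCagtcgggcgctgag
EIF4B, chr12:53006446-53006475, plus strand: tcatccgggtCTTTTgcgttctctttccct

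The second motif was the E-box CACGTG, which reads the same on both strands and is bound by MYC and related factors. It was searched in the 300 bases from 250 before to 50 after each start, and 14 of 56 member genes (25%) held it, against 8.77% of all genes in the table. EEF1AKMT4 and the readthrough gene EEF1AKMT4-ECE2 hold the motif at the same positions, so that start region is counted for both genes. The readthrough gene had 0 counts in every library. For neither motif were the genes of the table matched to the members by level. The lines below give 60 bases around the copy nearest the start, on the coding strand, with the motif in capitals. Its first base lies 72 bases before the start in EIF4E, 67 in EIF4G1, 199 in EIF4H, 121 in EIF4A3 and 54 in EIF1B.
EIF4E, chr4:98929173-98929232, minus strand: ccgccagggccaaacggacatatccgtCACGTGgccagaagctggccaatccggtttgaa
EIF4G1, chr3:184314512-184314571, plus strand: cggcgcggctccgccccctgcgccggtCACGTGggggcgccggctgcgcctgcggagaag
EIF4H, chr7:74174130-74174189, plus strand: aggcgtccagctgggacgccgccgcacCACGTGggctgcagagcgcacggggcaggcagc
EIF4A3, chr17:80147217-80147276, minus strand: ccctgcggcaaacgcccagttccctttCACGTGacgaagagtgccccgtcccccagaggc
EIF1B, chr3:40309626-40309685, plus strand: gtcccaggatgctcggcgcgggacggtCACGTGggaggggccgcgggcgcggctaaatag
A further motif, TGATGNAA on either strand, which is bound by C/EBP-ATF pairs, was in 1 of 56 member genes (1.79%), EIF4E3, against 4.46% of all genes. A match describes letters in a window and is not a binding site.

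Depth allowed most members to be measured well. Gene counts per library ran from 15621103 to 17113722, and 3 counts in a library, taken as the limit that a count of 0 allows, correspond to between 0.174 and 0.196 CPM, the read counts scaled to a common library size by TMM. This limit covers counting error only. Libraries of 1 group correlated at 0.990 to 0.991 over log2 CPM across genes, and their counts scattered beyond sampling noise (chi-square per degree of freedom of 2.83 to 3.65). The 5 markers that define the line (VIM, CD44, AXL, EGFR and MSN) were present in every library and summed to 4274 to 4489 CPM under DMSO, 3289 to 3354 CPM at 75 µg/ml and 2684 to 2724 CPM at 150 µg/ml. All 5 of these markers fell at both doses, and their part in the results below was not tested. Luminal markers summed to at most 48.3 CPM. Fibroblast and endothelial markers summed to 9.14 to 13.2 CPM under DMSO, 15.7 to 17.0 CPM at 75 µg/ml and 14.6 to 16.7 CPM at 150 µg/ml. Among them VWF and PDGFRB rose at 75 µg/ml (1.62 and 0.80 on the log2 scale), DCN was at 0 in every library, and the part of these markers in the results was not tested. The leukocyte markers PTPRC and CD3E were at 0 in every library.

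Under TMM scaling, translation factor transcripts were more often lower than higher after AF-EAE. At 150 µg/ml against DMSO, 35 of the 64 tested members fell, 10 rose and 19 did not pass the test (edgeR quasi-likelihood F-test, Benjamini-Hochberg adjusted over all tested genes, threshold 0.05). Over all genes tested in that comparison, 25.7% fell and 25.8% rose, 51.5% in all. The median log2 fold change was -0.20 over the members and 0.03 over all genes. At 75 µg/ml against DMSO, 31 members fell, 6 rose and 27 did not pass the test, where 19.4% of all genes fell and 19.2% rose (38.6% in all). The medians there were -0.15 over the members and 0.01 over all genes. RNA of a whole culture was measured, so a change in all cells and a change in some of them cannot be told apart. Levels are relative within a library, so neither cell number nor total RNA per cell can be read from them.

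These counts depended on the scaling, and most members are highly expressed. Scaling to total counts in place of TMM raised the median of all genes to 0.22 at 150 µg/ml and to 0.14 at 75 µg/ml. Under it 21 members fell and 15 rose at 150 µg/ml (median -0.02), and 15 fell and 11 rose at 75 µg/ml (median -0.03). The share of rises among all calls was then 70.3% at 150 µg/ml and 71.3% at 75 µg/ml, against 50.1% and 49.7% under TMM. All 21 and all 15 of those falls were also called under TMM. Total counts shift the values of all genes upward almost alike, so this overlap follows from the shift and is no separate support. The members had a median level of 141 CPM against 20.8 CPM over all tested genes. Among the 4954 genes with a mean of 50 CPM or more, 47.1% fell and 25.2% rose at 150 µg/ml. Of the 44 members above that level, 30 fell and 6 rose, and their median log2 fold change was -0.23 against -0.12 for all genes at that level. At 75 µg/ml, 29 of these 44 fell and 4 rose, where 40% of all such genes fell and 19.2% rose (medians -0.16 for the members and -0.09 for all).

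At 150 µg/ml EIF5AL1 was the only tested member that moved by 1 or more on the log2 scale, where 22.8% of all called genes did. Among called members the median absolute log2 fold change was 0.38, against 0.56 over all called genes. The members lie at higher levels than most genes, where smaller changes can pass the test, so these sets are unlike. Of the called members 14 moved by 0.5 or more, and the share of all genes past that bound was not computed. The 70 members together held 2.63% to 2.80% of the gene counts of a library. Their summed level was 30198 and 29622 CPM in the DMSO libraries, 26515 and 25965 CPM at 75 µg/ml and 24869 and 25057 CPM at 150 µg/ml. The DMSO libraries were thus highest, and under TMM no library of one group overlapped those of another. Scaled to total counts the sums were 28024 and 27602 CPM under DMSO, 26895 and 26386 CPM at 75 µg/ml and 26384 and 26497 CPM at 150 µg/ml, where the doses overlapped.

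**Figure D1:**
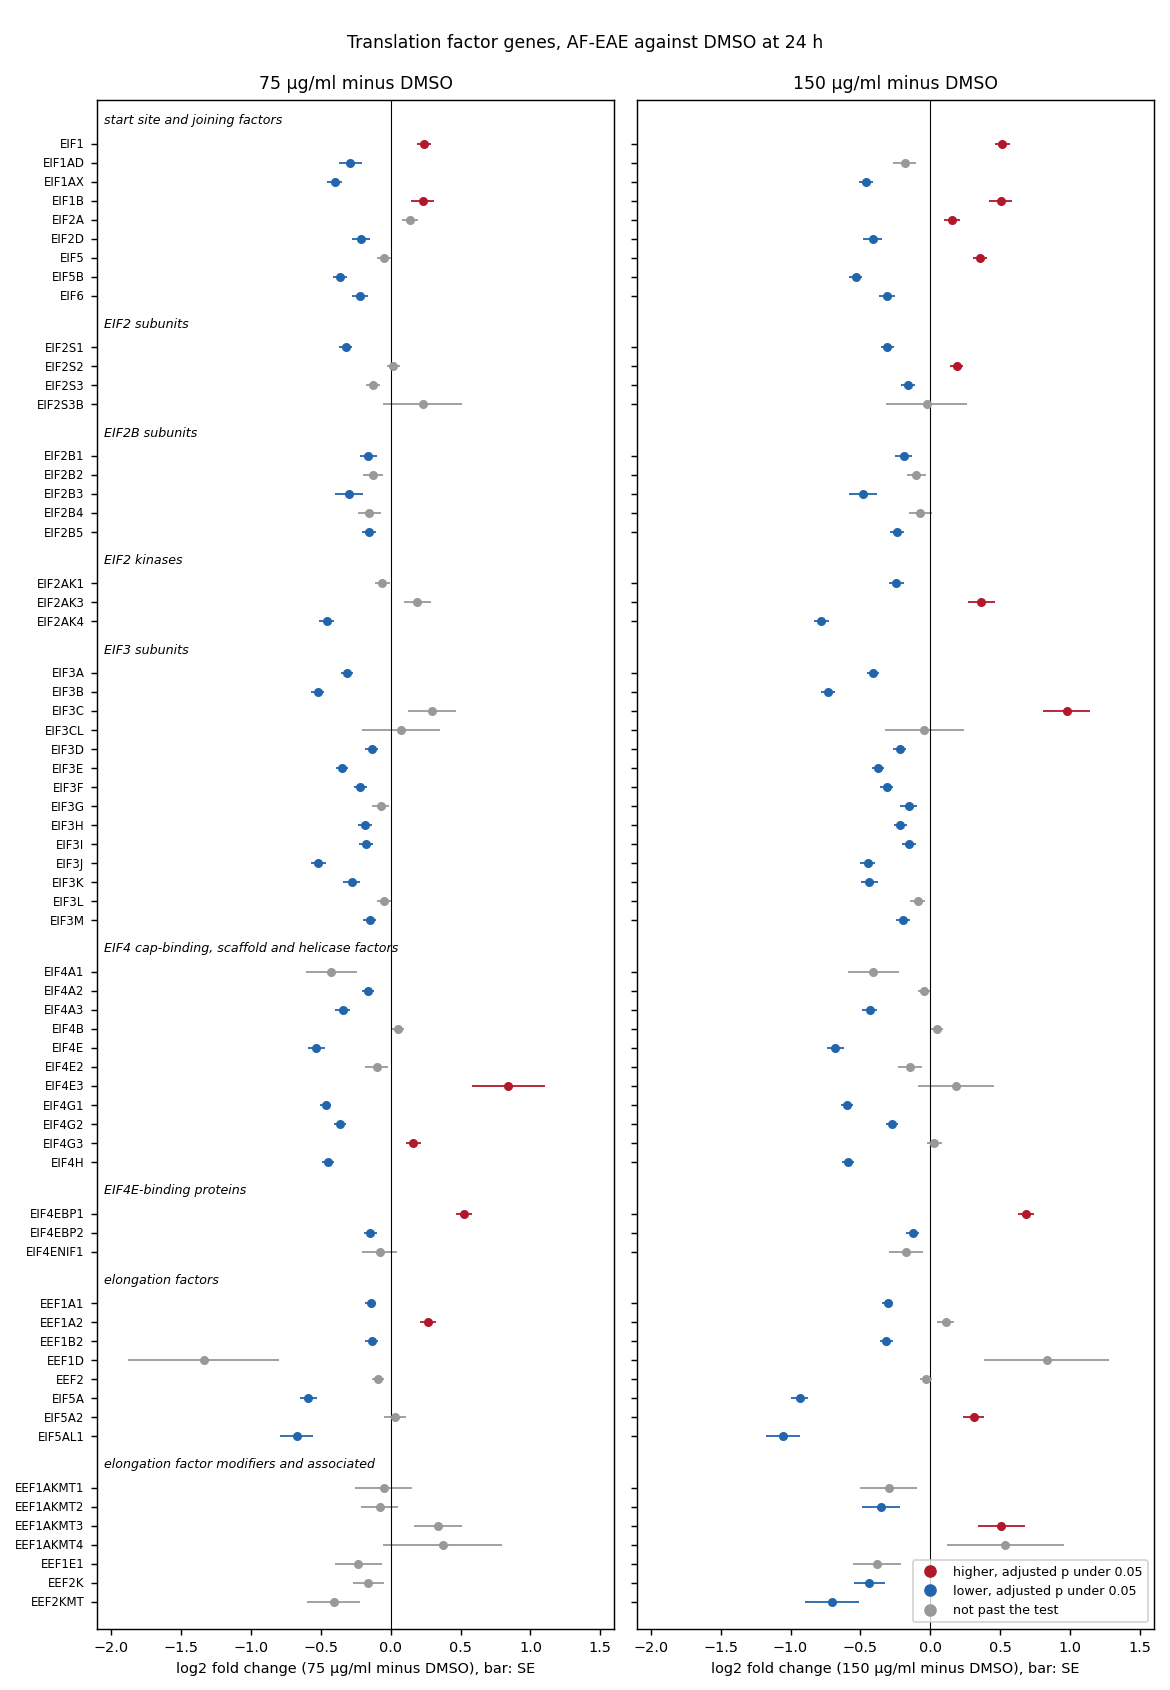
Log2 fold change of the 64 tested translation factor genes, grouped by role, at 75 µg/ml minus DMSO (left) and 150 µg/ml minus DMSO (right), with bars for the SE. Red points are higher and blue points lower at an adjusted p under 0.05 by edgeR's quasi-likelihood test, and grey points did not pass it. At 150 µg/ml 35 points are blue and 10 red.

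Factors that select the start codon and join the subunits moved in both directions. Of 9 tested members of that group, 4 rose and 4 fell at 150 µg/ml, with a median log2 fold change of -0.18 that was 0.00 under total counts. The lower dose had 2 rises and 5 falls. The summed level of the group was 2103 and 2063 CPM under DMSO, 2018 and 2028 CPM at 75 µg/ml and 2392 and 2220 CPM at 150 µg/ml. Under TMM only the 150 µg/ml libraries stood above DMSO, and under total counts those at 75 µg/ml did too (2047 and 2061 CPM, against 1952 and 1922 CPM under DMSO).

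EIF1, which guards the stringency of start codon selection, was the called member of that group with the largest rise. Its gene lies at chr17:41688885-41692668 (GRCh38, plus strand). It had 552 and 514 CPM under DMSO, 638 and 619.8 CPM at 75 µg/ml and 799.9 and 722 CPM at 150 µg/ml. The groups did not overlap and followed the dose. The log2 fold change was 0.51 at 150 µg/ml against DMSO (SE 0.0525, adjusted p = 2.74e-07, edgeR quasi-likelihood F-test, Benjamini-Hochberg adjusted), a 1.43-fold higher level, and 0.24 at 75 µg/ml (SE 0.0526, adjusted p = 0.00157). Its paralogue EIF1B, at a lower level, had 44.4 and 38.8 CPM under DMSO, 48.8 and 48.7 CPM at 75 µg/ml and 60.9 and 57.0 CPM at 150 µg/ml. EIF1B rose by 0.50 on the log2 scale at 150 µg/ml (SE 0.0809, adjusted p = 5.17e-05) and by 0.23 at 75 µg/ml (adjusted p = 0.0356), where the call was lost without DMSO replicate 2 (0.13), without either 75 µg/ml library (0.22 and 0.23) and with DESeq2 (0.21).

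EIF5, the GTPase-activating protein of EIF2, rose at the higher dose. It had 577 and 592 CPM under DMSO, 547 and 583 CPM at 75 µg/ml and 785 and 710.4 CPM at 150 µg/ml. Both 150 µg/ml libraries stood above the other 4, and the 75 µg/ml libraries overlapped DMSO. Its log2 fold change was 0.36 against DMSO (SE 0.0513, adjusted p = 1.63e-05, edgeR's test as above) and 0.40 against 75 µg/ml (SE 0.0513, adjusted p = 2.51e-05). Against DMSO the 75 µg/ml value was -0.05 (adjusted p = 0.491).

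EIF5B, the GTPase that joins the large ribosomal subunit, fell at both doses. It had 255 and 256 CPM under DMSO, 196 and 201 CPM at 75 µg/ml and 174 and 178 CPM at 150 µg/ml, with no overlap between groups. The change on the log2 scale was -0.53 at 150 µg/ml (SE 0.0479, adjusted p = 5.25e-08, edgeR's test as above) and -0.36 at 75 µg/ml (SE 0.0476, adjusted p = 1.11e-05). EIF1AX, which encodes EIF1A, the partner of EIF1 in scanning, fell by 0.46 on the log2 scale at 150 µg/ml and by 0.40 at 75 µg/ml. EIF6, which keeps free large subunits apart from small ones, fell by 0.31 and 0.22 at those doses, and EIF2D, an alternative initiator tRNA carrier, by 0.41 and 0.21. Under total counts EIF6 passed the test at neither dose (-0.12 at 150 µg/ml, adjusted p = 0.0733) and EIF2D did not at 75 µg/ml (-0.087). EIF2A, another such carrier unrelated to the EIF2 subunits, rose at 150 µg/ml (0.15, adjusted p = 0.0307), a call that was lost with DESeq2 (0.13), with no filter (0.14), without DMSO replicate 1 (0.11) and without either 150 µg/ml library (0.16 and 0.15).

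The EIF2 complex was split between its subunits. EIF2S1 encodes the alpha subunit, which carries the phosphorylated serine, EIF2S2 the beta subunit and EIF2S3 the gamma subunit. EIF2S1 had 334 and 329 CPM under DMSO, 264 and 267 CPM at 75 µg/ml and 276 and 259.9 CPM at 150 µg/ml. Both doses lay below DMSO and overlapped each other. Its log2 fold change was -0.31 at 150 µg/ml (SE 0.0474, adjusted p = 3.36e-05, edgeR quasi-likelihood F-test, Benjamini-Hochberg adjusted) and -0.32 at 75 µg/ml (SE 0.0475, adjusted p = 3.98e-05), and 0.01 between the doses (adjusted p = 0.879). EIF2S2 had 407 and 401 CPM under DMSO, 409.5 and 411 CPM at 75 µg/ml and 474 and 449 CPM at 150 µg/ml. It rose at 150 µg/ml (0.19, SE 0.0452, adjusted p = 0.00195), and its value at 75 µg/ml was 0.02 (adjusted p = 0.767). Under total counts its 75 µg/ml value was 0.15 and passed the test. EIF2S3 was at 197 and 209 CPM at 150 µg/ml against 232 and 222 CPM in DMSO, a log2 fold change of -0.16 (adjusted p = 0.0128). Its value under total counts was 0.03 and did not pass. Over the 4 tested members of the group the median was -0.09 at 150 µg/ml, with 1 higher and 2 lower, and 0.09 under total counts.

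EIF2B, the exchange factor that reloads EIF2 with GTP, had 3 of 5 subunits lower at each dose, with a median of -0.19 at 150 µg/ml that was -0.00358 under total counts. EIF2B3, its gamma subunit, had 27.8 and 25.9 CPM under DMSO, 22.4 and 21.3 CPM at 75 µg/ml and 19.5 and 18.9 CPM at 150 µg/ml. Its groups did not overlap, and the log2 fold change was -0.48 at 150 µg/ml (SE 0.103, adjusted p = 0.00076, edgeR's test as above) and -0.30 at 75 µg/ml (adjusted p = 0.0272). The call at 75 µg/ml was lost under total counts (-0.17), with DESeq2 (-0.32), without DMSO replicate 1 (-0.25) and without either 75 µg/ml library (-0.34 and -0.26). EIF2B1 and EIF2B5 fell by 0.19 and 0.24 at 150 µg/ml, and EIF2B2 and EIF2B4 did not pass the test (-0.10 and -0.07). Under total counts EIF2B1 and EIF2B5 did not pass either (-0.0036 and -0.051).

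Of the 3 kinases of EIF2 alpha that the rule takes, GCN2 and HRI transcripts fell at 150 µg/ml and PERK transcripts rose, while under total counts HRI no longer passed the test. EIF2AK4 encodes GCN2, which senses uncharged tRNA, and lies at chr15:39934146-40035591 (plus strand). It had 181 and 189 CPM under DMSO, 135 and 135 CPM at 75 µg/ml and 105 and 111 CPM at 150 µg/ml. No groups overlapped, and the level followed the dose. On the log2 scale it differed by -0.78 at 150 µg/ml against DMSO (SE 0.0534, adjusted p = 1.63e-09, edgeR quasi-likelihood F-test, Benjamini-Hochberg adjusted), -0.46 at 75 µg/ml (adjusted p = 2.47e-06) and -0.32 between the doses (adjusted p = 0.000377). EIF2AK3 encodes PERK, the kinase of the endoplasmic reticulum, and had 23.7 and 24.2 CPM under DMSO, 26.0 and 28.6 CPM at 75 µg/ml and 30.2 and 31.4 CPM at 150 µg/ml. It rose by 0.36 at 150 µg/ml (SE 0.096, adjusted p = 0.0042), while its value of 0.19 at 75 µg/ml did not pass the test (adjusted p = 0.134). Under total counts its 75 µg/ml value was 0.32 and passed. EIF2AK1, the heme-regulated kinase HRI, had 129 and 132 CPM at 150 µg/ml against 152 and 157 CPM in DMSO (-0.24, adjusted p = 0.000751), and its value under total counts was -0.054 (adjusted p = 0.39).

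EIF3, the large scaffold that holds the preinitiation complex together, was lower across most of its subunits. At 150 µg/ml 11 of 14 tested members fell, 1 rose and 2 did not pass the test, and at 75 µg/ml 10 fell and 4 did not pass it. The median log2 fold changes were -0.22 and -0.18, and -0.03 and -0.05 under total counts, where 6 and 4 members still fell. The summed level was 3879 and 3798 CPM under DMSO, 3173 and 3163 CPM at 75 µg/ml and 3006 and 3035 CPM at 150 µg/ml, with both doses clear of DMSO.

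EIF3B, a core subunit that binds RNA, had the largest fall among the EIF3 subunits. Its gene lies at chr7:2354086-2380745 (plus strand). It had 541 and 514 CPM under DMSO, 363 and 371 CPM at 75 µg/ml and 307 and 329 CPM at 150 µg/ml. The groups did not overlap. The fitted log2 fold change was -0.73 at 150 µg/ml (SE 0.0485, adjusted p = 1.09e-09, edgeR quasi-likelihood F-test, Benjamini-Hochberg adjusted), a level 0.603 times that of DMSO, and -0.52 at 75 µg/ml (adjusted p = 1.96e-07). The step of -0.21 between the doses (adjusted p = 0.0055) lost its call without 150 µg/ml replicate 1 (-0.15).

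EIF3J, a loosely bound subunit at the decoding centre, had 158 and 159 CPM under DMSO, 108 and 112 CPM at 75 µg/ml and 119 and 113 CPM at 150 µg/ml. Both doses lay below DMSO. It fell by 0.52 at 75 µg/ml (SE 0.0541, adjusted p = 8.33e-07, edgeR's test as above) and by 0.45 at 150 µg/ml (adjusted p = 1.95e-06), and the difference between the doses was 0.07 (adjusted p = 0.404). The largest subunit, EIF3A, fell by 0.41 at 150 µg/ml, EIF3K by 0.44, EIF3E by 0.38 and EIF3F by 0.31. EIF3D, EIF3G, EIF3H, EIF3I and EIF3M fell by 0.15 to 0.22. Under total counts none of these passed the test, and their values ran from -0.030 to 0.035. EIF3L did not pass the test (-0.09, adjusted p = 0.155), and 51.8% of its exon bases overlap other genes.

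EIF3C went the other way, on few and uneven reads. It had 18.7 and 20.4 CPM under DMSO, 28.8 and 19.2 CPM at 75 µg/ml and 31.6 and 45.2 CPM at 150 µg/ml. The 75 µg/ml group overlapped DMSO and the 2 libraries at 150 µg/ml lay far apart. The log2 fold change was 0.98 at 150 µg/ml (SE 0.167, adjusted p = 9.61e-05, edgeR's test as above). EIF3C has a near-identical copy, EIF3CL, at 2.60 to 3.66 CPM in all libraries, so its reads are uncertain. With both copies summed, the log2 fold change was 0.87. Its level per kilobase of exon in DMSO, 2.80 CPM per kb, was far below the 27.7 to 126 CPM per kb of the other subunits except that copy.

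**Figure D2:**
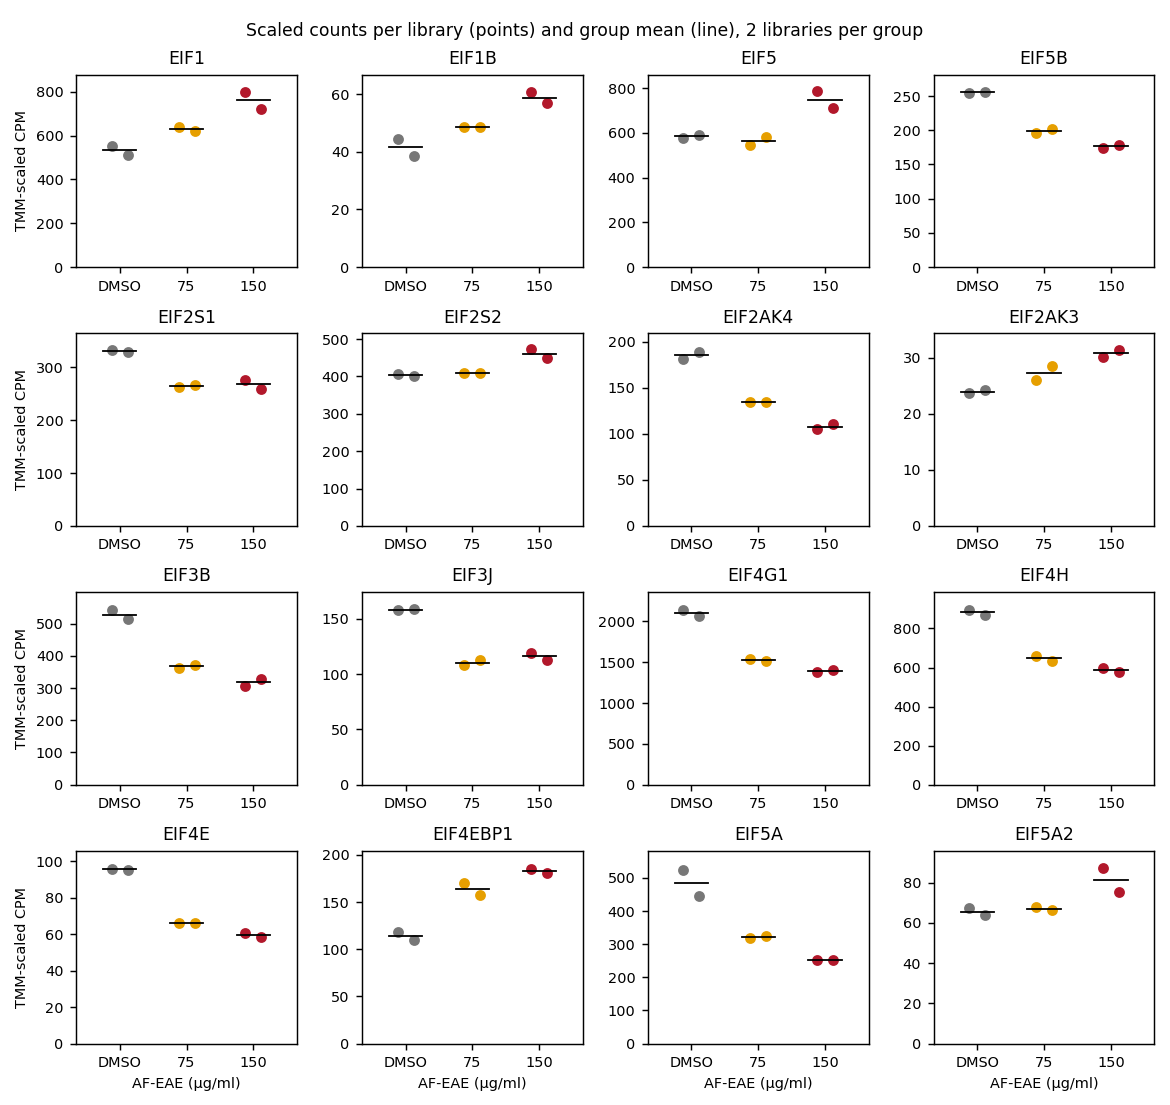
TMM-scaled CPM of 16 translation factor genes in each of the 6 libraries, for DMSO and for AF-EAE at 75 and 150 µg/ml. Points are libraries and lines are the means of 2. EIF5A falls to 253 CPM in both libraries at 150 µg/ml, against 524 and 444 CPM in DMSO, and EIF4EBP1, EIF1 and EIF2AK3 lie above DMSO in both libraries of each dose.

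Of the EIF4 factors that bind the cap and unwind the mRNA, 5 of 11 tested members fell at 150 µg/ml and 6 did not pass the test. With 75 µg/ml 6 fell and 2 rose. The medians were -0.27 and -0.34, and -0.09 and -0.22 under total counts, where 4 fell and 3 rose at 150 µg/ml. The summed level was 5898 and 5771 CPM under DMSO, 4621 and 4555 CPM at 75 µg/ml and 4512 and 4441 CPM at 150 µg/ml. Each dose lay below DMSO without overlap.

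EIF4E, the cap-binding protein, was among those that fell. Its gene lies at chr4:98871684-98930637 (minus strand), and its promoter stretch with the E-box is printed above. It had 95.9 and 95.3 CPM under DMSO, 65.9 and 66.4 CPM at 75 µg/ml and 60.8 and 58.6 CPM at 150 µg/ml. The libraries of a group lay close together and the groups did not overlap. Its log2 fold change was -0.68 at 150 µg/ml (SE 0.0628, adjusted p = 7.85e-08, edgeR quasi-likelihood F-test, Benjamini-Hochberg adjusted), a level 0.624 times that of DMSO, and -0.53 at 75 µg/ml (SE 0.0624, adjusted p = 3.26e-06).

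EIF4G1, the scaffold that links EIF4E to EIF4A and EIF3, lies at chr3:184314495-184335358 (plus strand). It had 2143 and 2071 CPM under DMSO, 1540.1 and 1513 CPM at 75 µg/ml and 1382 and 1407 CPM at 150 µg/ml. It fell by 0.60 on the log2 scale at 150 µg/ml (SE 0.0406, adjusted p = 1.55e-09, edgeR's test as above) and by 0.46 at 75 µg/ml (adjusted p = 1.02e-07). EIF4H, a cofactor of the EIF4A helicase, had 897 and 869 CPM under DMSO, 661 and 635 CPM at 75 µg/ml and 597 and 579 CPM at 150 µg/ml. It fell by 0.59 at 150 µg/ml (SE 0.0438, adjusted p = 5.13e-09) and by 0.45 at 75 µg/ml (adjusted p = 4.04e-07). Groups did not overlap for either gene. The steps between the doses, -0.13 for EIF4G1 (adjusted p = 0.0282) and -0.14 for EIF4H (adjusted p = 0.0289), lost their calls under total counts (-0.07 and -0.08) and without any one of the 4 treated libraries.

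Relatives of these factors differed. EIF4G2, a scaffold that lacks the EIF4E-binding part, fell by 0.27 at 150 µg/ml and by 0.36 at 75 µg/ml, and EIF4A3, the helicase of the exon junction complex, by 0.43 and 0.34. EIF4A2, an EIF4A paralogue, fell at 75 µg/ml (-0.16, adjusted p = 0.00762) and did not pass the test at 150 µg/ml (-0.05, adjusted p = 0.392, edgeR's test as above). EIF4G3, a paralogue of the scaffold, rose at 75 µg/ml (0.16, adjusted p = 0.0251) and was at 0.03 at 150 µg/ml (adjusted p = 0.691). EIF4B, the other helicase cofactor, did not pass the test at either dose (0.05 at each). Under total counts EIF4B rose at both doses (0.23 at 150 µg/ml and 0.18 at 75 µg/ml). EIF4G3 and EIF4A2 also rose under that scaling at 150 µg/ml (0.22 and 0.14). The falls of EIF4A2 at 75 µg/ml (-0.03) and of EIF4G2 at 150 µg/ml (-0.09) did not pass under it. EIF4E3, a cap-binding relative at 2.46 to 6.36 CPM, rose at 75 µg/ml (0.84, adjusted p = 0.016). EIF4A1, the main helicase gene, had 5.75 to 9.49 CPM over all libraries, and 48.6% of its exon bases overlap other annotated genes, so its low level is uncertain.

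The EIF4E-binding proteins changed in opposite directions. EIF4EBP1 encodes 4E-BP1, a translational repressor that mTORC1 phosphorylates. It had 118 and 109 CPM under DMSO, 169.9 and 158 CPM at 75 µg/ml and 185 and 181 CPM at 150 µg/ml. Every treated library stood above both DMSO libraries. The change on the log2 scale was 0.68 at 150 µg/ml (SE 0.0574, adjusted p = 2.35e-08, edgeR quasi-likelihood F-test, Benjamini-Hochberg adjusted), a 1.61-fold higher level, and 0.52 at 75 µg/ml (SE 0.0578, adjusted p = 1.58e-06). EIF4EBP2, its paralogue, had 244 and 243 CPM under DMSO, 219.5 and 221 CPM at 75 µg/ml and 225 and 221 CPM at 150 µg/ml. Its fall was small (-0.13 at 150 µg/ml, adjusted p = 0.0301, and -0.14 at 75 µg/ml, adjusted p = 0.0205), turned to 0.06 under total counts at 150 µg/ml, and lost its call when any one library of the 2 groups compared was left out. EIF4ENIF1, which carries EIF4E between nucleus and cytoplasm, did not pass the test (-0.17, adjusted p = 0.26), and EIF4EBP3 had 2 to 11 counts per library and was not tested.

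Within a library, the ratio of 2 genes' raw counts does not depend on the scaling. EIF4EBP1 had 1.23 and 1.15 reads per EIF4E read in DMSO, 2.58 and 2.38 at 75 µg/ml, and with 150 µg/ml 3.05 and 3.09. EIF2S2 had 1.22 and 1.22 reads per EIF2S1 read in DMSO, 1.55 and 1.54 at 75 µg/ml, and with 150 µg/ml 1.72 and 1.73. EIF2AK3 had 0.131 and 0.128 reads per EIF2AK4 read in DMSO, 0.193 and 0.212 at 75 µg/ml, and with 150 µg/ml 0.287 and 0.284. In each of these pairs the 3 groups were ordered by dose without overlap. The same held for EIF1 per EIF1AX read, with 3.03 and 2.74 in DMSO, 4.46 and 4.53 at 75 µg/ml, and with 150 µg/ml 5.80 and 5.53. EIF5 per EIF5B read also followed the dose, with 2.27 and 2.31 in DMSO, 2.79 and 2.90 at 75 µg/ml, and with 150 µg/ml 4.50 and 3.98. Of the ratios computed but not plotted, EIF1 per EIF4G1 read and EIF3B per EIF3L read followed the dose, and the others did not. EEF1A1 per EEF2 read, for example, was 7.92 and 8.46 in DMSO and 7.94 and 7.81 at 75 µg/ml. The pairs were chosen with earlier values known and the ratios carry no test.

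**Figure D3:**
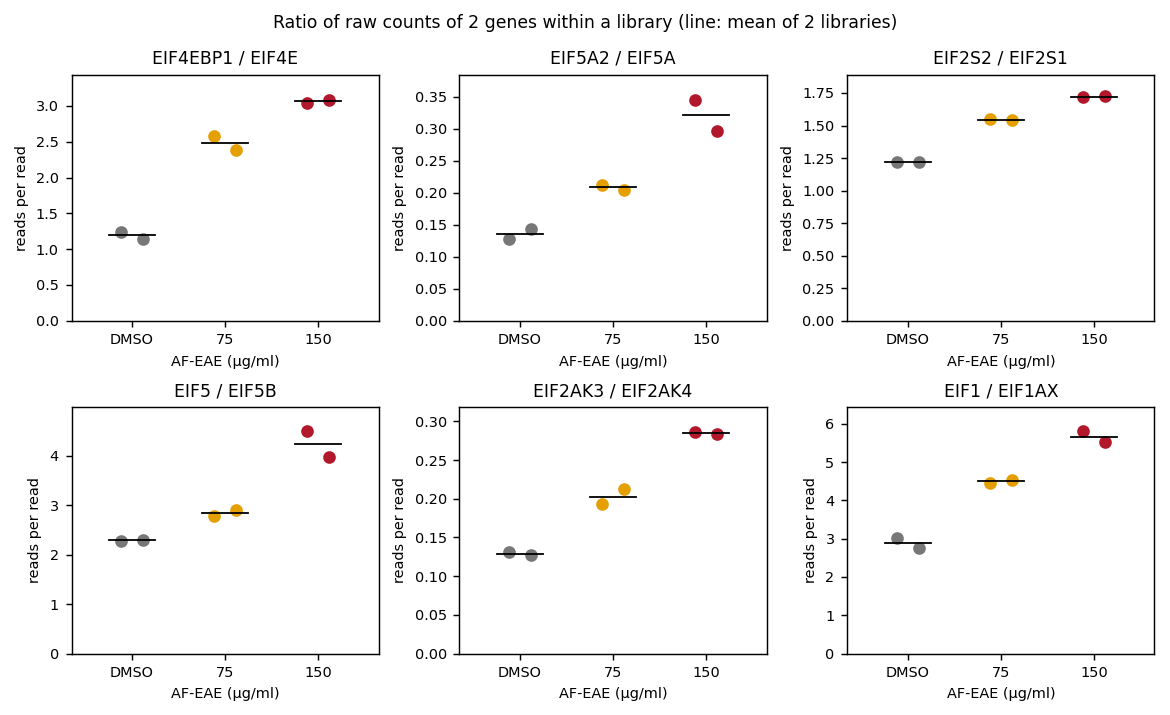
Raw reads of one gene per read of another within each of the 6 libraries, for DMSO and for AF-EAE at 75 and 150 µg/ml, with a line at the mean of 2 libraries. EIF4EBP1 per EIF4E read lies at 1.15 to 1.23 in DMSO and at 3.05 to 3.09 at 150 µg/ml. All 6 ratios shown are ordered by dose, and the pairs were chosen with earlier values known.

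Elongation factors held most of the members' reads and were split as well. Of 8 tested, 4 fell and 1 rose at each dose, with medians of -0.17 at 150 µg/ml and -0.14 at 75 µg/ml that were 0.02 and -0.01 under total counts. The summed level was 16112 and 15825 CPM under DMSO, 14671 and 14188 CPM at 75 µg/ml and 12905 and 13331 CPM at 150 µg/ml. The groups did not overlap under TMM, while under total counts the 75 µg/ml sums (14881 and 14418 CPM) overlapped those of DMSO (14952 and 14746 CPM).

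EEF1A1, which delivers aminoacyl-tRNA to the ribosome, was the most abundant member, at 2240.4 CPM per kilobase of exon in DMSO. Its gene lies at chr6:73515750-73523797 (minus strand). It had 13358 and 13294 CPM under DMSO, 12283 and 11842 CPM at 75 µg/ml and 10566 and 11008 CPM at 150 µg/ml. The groups did not overlap. It fell by 0.30 on the log2 scale at 150 µg/ml (SE 0.0377, adjusted p = 2.74e-06, edgeR quasi-likelihood F-test, Benjamini-Hochberg adjusted) and by 0.14 at 75 µg/ml (adjusted p = 0.00577), where the call was lost under total counts (-0.02) and without 75 µg/ml replicate 2 (-0.12). The annotation names 49 pseudogenes of it, and 4.41% to 4.68% of the family's reads were counted on them. EEF1B2, a subunit of its exchange factor, fell by 0.31 at 150 µg/ml (adjusted p = 2.47e-05) and by 0.14 at 75 µg/ml. The 75 µg/ml call of EEF1B2 was lost under total counts (-0.01). EEF1A2, the paralogue typical of muscle and neurons, had 113 and 103 CPM under DMSO, 133 and 128 CPM at 75 µg/ml and 118 and 116 CPM at 150 µg/ml. It rose at 75 µg/ml (0.27, adjusted p = 0.00156) and did not pass the test at 150 µg/ml (0.11, adjusted p = 0.133). Under total counts it rose at 150 µg/ml too (0.30).

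EEF2, the translocase, did not pass the test at either dose under TMM. It had 1686 and 1571 CPM under DMSO, 1548 and 1517 CPM at 75 µg/ml and 1603 and 1589.8 CPM at 150 µg/ml. The 150 µg/ml libraries lay between those of DMSO. On the log2 scale it differed by -0.03 at 150 µg/ml (SE 0.0432, adjusted p = 0.605, edgeR's test as above) and -0.09 at 75 µg/ml (SE 0.0433, adjusted p = 0.12), and under total counts the values were 0.16, which passed the test (adjusted p = 0.00404), and 0.04, which did not. At 75 µg/ml it was called lower with DESeq2 (-0.11, adjusted p = 0.0379) and without DMSO replicate 2 (-0.14, adjusted p = 0.0239). At 404 CPM per kilobase in DMSO it was second to EEF1A1 among the members.

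EIF5A, the factor modified with hypusine that helps stalled ribosomes, had the largest fall among members with a mean of 10 CPM or more, apart from its own copy EIF5AL1. Its gene lies at chr17:7306999-7312463 (plus strand). It had 524 and 444 CPM under DMSO, 319 and 325 CPM at 75 µg/ml and 253 and 253 CPM at 150 µg/ml. The groups did not overlap, and the DMSO libraries lay furthest apart. The fitted log2 fold change was -0.94 at 150 µg/ml (SE 0.0614, adjusted p = 9.41e-10, edgeR quasi-likelihood F-test, Benjamini-Hochberg adjusted), a level 0.523 times that of DMSO, -0.59 at 75 µg/ml (SE 0.0607, adjusted p = 7.32e-07) and -0.35 between the doses (SE 0.0616, adjusted p = 0.000633). EIF5AL1, a near-identical copy, had 20.8 and 22.1 CPM under DMSO, 13.1 and 13.8 CPM at 75 µg/ml and 10.0 and 10.6 CPM at 150 µg/ml. It fell by 1.05 at 150 µg/ml (SE 0.121, adjusted p = 1.15e-06), but its reads stood at 0.0397 to 0.0497 per EIF5A read in all 6 libraries and cannot be told apart from misplaced EIF5A reads.

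EIF5A2, the paralogue of EIF5A from another locus, rose at the higher dose. It had 67.4 and 63.8 CPM under DMSO, 67.8 and 66.3 CPM at 75 µg/ml and 87.5 and 75.2 CPM at 150 µg/ml. Only the 150 µg/ml libraries stood clear of DMSO. The log2 fold change was 0.31 at 150 µg/ml (SE 0.075, adjusted p = 0.00219, edgeR's test as above), 0.03 at 75 µg/ml (adjusted p = 0.785) and 0.28 between the doses (adjusted p = 0.0126). Without 150 µg/ml replicate 1 the value at 150 µg/ml was 0.19 and no longer passed. The step between the doses lost its call without that library (0.17) and without 75 µg/ml replicate 2 (0.26). EIF5A2 had 0.129 and 0.144 reads per EIF5A read in DMSO, 0.213 and 0.204 at 75 µg/ml, and with 150 µg/ml 0.346 and 0.297.

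EEF1D and EEF1G, the other subunits of the exchange factor, could not be followed. EEF1D had 18 to 204 counts per library, with 34.0% of its exon bases overlapping other genes. It had 11.8 CPM in 150 µg/ml replicate 2 and 1.10 to 4.92 CPM in the other 5 libraries, so its call between the doses (2.17, adjusted p = 0.00531) rests on that library. EEF1G was listed at 0 counts in every library, with 99.9% overlap. EIF1AY and the readthrough genes EEF1AKMT4-ECE2 and EEF1E1-BLOC1S5 were also at 0 throughout, and EIF4E1B had 0 to 2 counts. Leaving out members with 30% or more overlap, and the copies EIF3C, EIF3CL, EIF5AL1 and EIF2S3B, left 56 tested with EIF5A among them, of which 34 fell and 9 rose at 150 µg/ml and 30 fell and 6 rose at 75 µg/ml.

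Enzymes that modify the elongation factors, with EEF1E1 (a subunit of the tRNA synthetase complex), showed 3 falls and 1 rise among 7 tested at 150 µg/ml. Their log2 fold changes at 75 µg/ml ran from -0.41 to 0.37, with a median of -0.08. EEF2K, the kinase that inhibits EEF2, had 19.2 and 22.5 CPM at 150 µg/ml against 30.4 and 26.0 CPM in DMSO, a log2 fold change of -0.44 (adjusted p = 0.00332) that was -0.25 under total counts and did not pass there (adjusted p = 0.0672). Total counts left 1 fall and 1 rise in this group at 150 µg/ml. EEF2KMT, a lysine methyltransferase of EEF2, had 4.84 and 5.46 CPM at 150 µg/ml against 9.58 and 7.20 CPM in DMSO. It fell by 0.71 (SE 0.194, adjusted p = 0.00564), and the call was lost without DMSO replicate 1 (-0.49). EEF1AKMT3, a lysine methyltransferase of EEF1A, had 8.88 and 9.46 CPM at 150 µg/ml against 7.06 and 5.83 CPM in DMSO. Its rise of 0.51 (adjusted p = 0.0171) was lost without DMSO replicate 2 (0.37), without 150 µg/ml replicate 2 (0.46) and with DESeq2 (0.48).

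**Figure D4:**
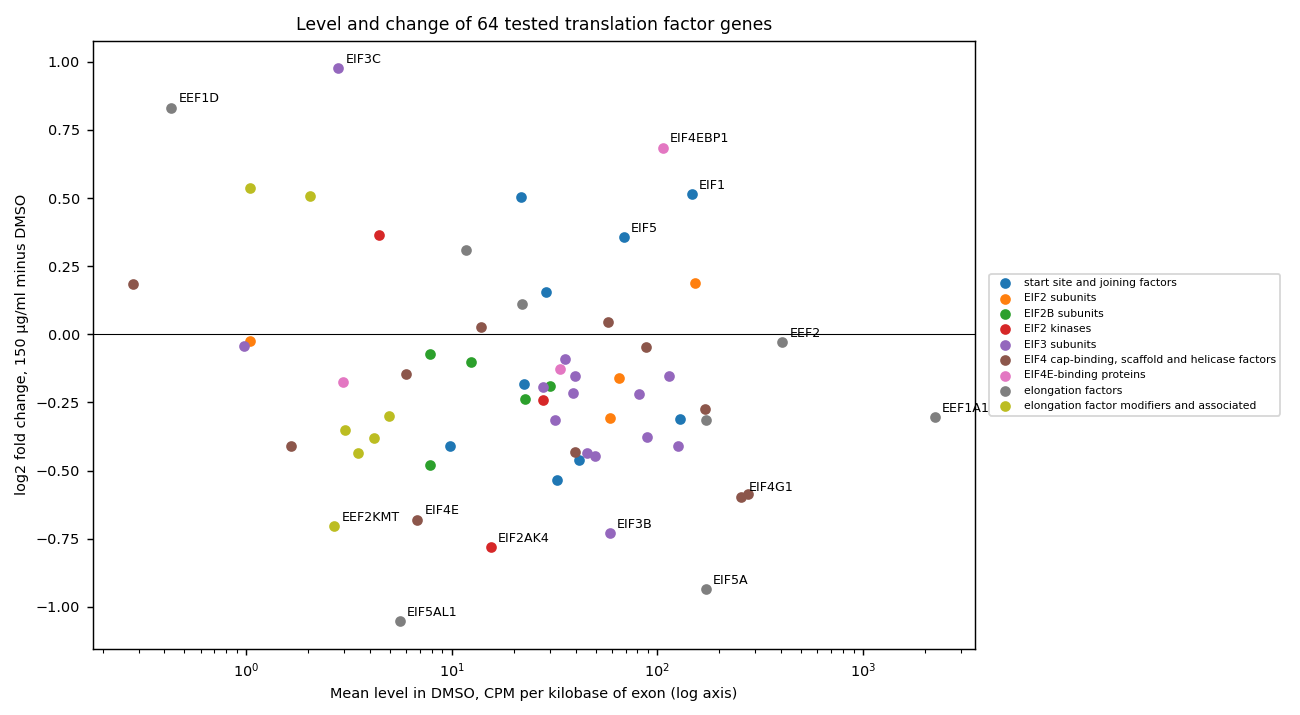
Log2 fold change at 150 µg/ml minus DMSO against the mean DMSO level in CPM per kilobase of exon (log axis) for the 64 tested translation factor genes, coloured by role group. EEF1A1 is rightmost at 2240.4 CPM per kb with -0.30, and EIF5A (172 CPM per kb) lies at -0.94.

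Between the doses, 150 µg/ml against 75 µg/ml, 11 of 64 members fell, 8 rose and 45 did not pass the test, where 12.5% of all genes fell and 9.51% rose (22% in all). Among genes with a mean of 50 CPM or more, 25.4% fell and 14.5% rose in that comparison. Of the 44 members above that level, 10 fell and 5 rose. Under total counts 3 members fell and 11 rose, and the 3 were EIF2AK4, EIF3B and EIF5A. Of the 15589 genes, 1345 fell and 2206 rose under that scaling, so rises made up 62.1% of all calls. Leaving out any one of the 4 treated libraries left 3 to 7 falls and 3 to 6 rises, the fewest falls (3) without 75 µg/ml replicate 1 or 150 µg/ml replicate 1 and the fewest rises (3) without 75 µg/ml replicate 2. By group, 4 elongation factors fell and 2 rose, 3 start-site factors rose and 2 fell, 2 EIF4 factors and 2 EIF2 kinases fell, 1 EIF3 subunit fell and 1 rose, and 1 EIF2 subunit and 1 EIF4E-binding protein rose. Members of the EIF3 and EIF4 groups thus differed little between the doses, with medians of -0.06 and -0.09. Set side by side at 150 µg/ml against DMSO, 7 of 12 genes of EIF2, EIF2B and the EIF2 kinases fell and 2 rose, against 11 and 1 of 14 for EIF3, 5 of 11 falling for EIF4, and 4 and 1 of 8 for the elongation factors. Over all genes 25.7% fell and 25.8% rose there, and among those at 50 CPM or more 47.1% fell and 25.2% rose. Under total counts 3 fell and 2 rose in the first of these groups. That scaling gave 6 falls and 1 rise for EIF3, 4 and 3 for EIF4, and 4 and 3 for the elongation factors. The groups were not tested against each other.

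The members' changes can also be set beside the start-region features printed above. The 13 tested members with a TOP tract ranged from -0.44 to 0.15 at 150 µg/ml with a median of -0.20, and 8 fell and 1 rose. The 37 matched members without one ranged from -1.05 to 0.98 with a median of -0.27, and 21 fell and 6 rose. Falls outnumbered rises on both sides of that split under TMM. Under total counts EEF1A1, EEF1B2, EIF2D, EIF3F and EIF3K were the members with a tract that fell at 150 µg/ml. EEF2, EIF2A, EIF4A2 and EIF4B rose there. At 75 µg/ml only EIF2A and EIF4B among them passed the test under that scaling, and both rose. The E-box values that follow are under TMM only. The 12 tested members with an E-box had a median of -0.44 at 150 µg/ml, with 8 lower and 2 higher, and the 38 without it a median of -0.19, with 21 lower and 5 higher. At 75 µg/ml those medians were -0.25 with the E-box and -0.15 without it. EIF4E, EIF4G1, EIF4H and EIF4A3 are among the members with an E-box that fell, and EIF1B among those that rose. The difference was not tested.

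**Figure D5:**
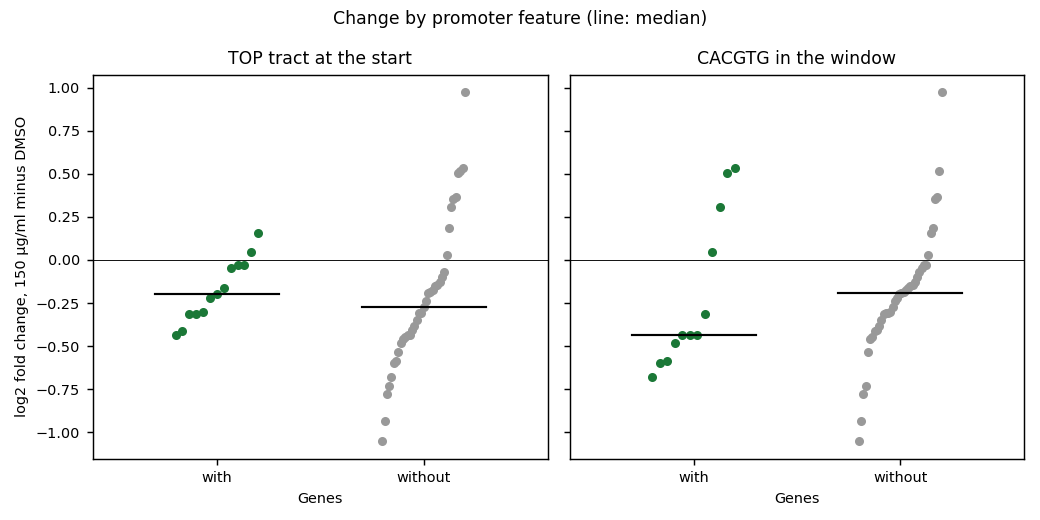
Log2 fold change at 150 µg/ml minus DMSO of tested members with and without a TOP tract at the start (left, 13 and 37 genes) and with and without CACGTG in the 300-base window (right, 12 and 38 genes). Points are genes sorted by value and lines are medians, at -0.20 and -0.27 on the left and -0.44 and -0.19 on the right.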

How the data were processed

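RNA-seq was measured in 6 libraries. Per the labels' protocols, libraries were made with a NEBNext Ultra kit. Per the submitters' processing notes, HISAT2 2.2.1, HTSeq 2.0.2 and hg38 were used. No source used here gives the strand or counting options. The deposited values are raw counts per gene. The 5 summary rows were left out of library sizes. Reads assigned to no feature made up 6.32% to 7.98% and ambiguous reads 10.95% to 11.48%. These are shares of the sum of all rows, with the 5 summary rows included. Symbols were available for 60437 rows, and coordinates and protein-coding status come from GENCODE 29, which matched 58405 rows.

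Tests used edgeR 4.0.16 in R 4.3.3 with TMM, its default filter (45062 genes removed) and a quasi-likelihood fit of all 6 libraries, 1 mean per group and 3 residual degrees of freedom. Benjamini-Hochberg adjustment ran over all tested genes at 0.05. Log2 fold changes are given with their SE. Counts per kilobase use the union of exons. The test was tested on simulated data. The alternatives were DESeq2 size factors, total counts, no filter, 5 CPM in 2 libraries, DESeq2 1.42.0, limma-voom (limma 3.58.1), only the 2 groups compared, the replicate block, an adjusted p of 0.01 and each library left out; summing near-identical copies was chosen after seeing the data.

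Members, lists and tests were chosen with earlier results of these data known. Members named with full values are those with the largest called change at 150 µg/ml in each direction of each role group, those called at either dose that moved by 0.5 or more (log2) in either direction with a mean of 10 CPM or more, and EIF2S1, EIF4E, EIF4EBP1, EIF5A, EEF1A1 and EEF2. All other members named, EIF5, EIF1AX, EEF1A2 and EEF2K among them, were chosen after their values were seen. A further marker gene, beside those named, is not reported here.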

Additional observations from a re-analysis of the deposited data

How the results depend on the processing

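Counts of called genes and members that moved by more than 1.5 times were the following. Total counts gave 21 members lower at 150 µg/ml against DMSO, 11 higher and 15 lower at 75 µg/ml against DMSO, and 3 lower at 150 against 75 µg/ml. An adjusted p of 0.01 gave 3 members higher at 75 µg/ml against DMSO, and between the doses 1883 genes called, 4 members higher and 4 lower. DESeq2 gave 3 members higher at 75 µg/ml against DMSO and 4 higher between the doses. Leaving out 1 library gave 6691 to 7267 genes, 8 to 11 members higher and 27 to 35 lower at 150 µg/ml, and 4654 to 5298 genes, 3 to 6 higher and 22 to 31 lower at 75 µg/ml. Between the doses it gave 1507 to 2593 genes, 3 to 6 higher and 3 to 7 lower, with 1507 genes without 150 µg/ml replicate 1 and 1990 without 75 µg/ml replicate 1. The 3 members higher at 75 µg/ml came without 75 µg/ml replicate 1.

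Deviations of same-numbered libraries correlated at 0.059, 0.041 and 0.0037 over all genes, and no label states a pairing. With 2 libraries per group, these values cannot settle whether same-numbered libraries were paired. Without the replicate block 8022 genes were called at 150 µg/ml, 6015 at 75 µg/ml and 3433 between the doses. With the replicate block, 8194 genes, 10 members higher and 36 lower were called at 150 µg/ml, 6292, 7 and 33 at 75 µg/ml, and 3776, 8 and 12 between the doses.

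Signs turned for EEF2 at 150 µg/ml (0.16 under total counts, 0.0094 with the 5 CPM filter, -0.083 to 0.020 leaving out 1 library) and at 75 µg/ml (0.038 under total counts), and for EIF4EBP2 at 150 µg/ml (0.061 under total counts). Signs also turned for EIF2S2 at 75 µg/ml with DESeq2 (-2.92e-05). Leaving out 1 library gave -0.033 to 0.56 for EIF3C at 75 µg/ml (lowest without 75 µg/ml replicate 1), -0.0099 to 0.069 for EIF5A2 at 75 µg/ml (lowest without DMSO replicate 2) and -0.024 to 0.061 for EIF2S1 between the doses (lowest without 150 µg/ml replicate 1). The cause of these changes was not tested. Over the named members, 805 values kept their direction and side of the threshold, 84 lost the call, 8 gained it and 9 changed sign. Of the members called at 150 µg/ml, 20 of 35 lower and 7 of 10 higher stayed called with every other scaling, filter and tool at 0.05 and without any 1 library. At 75 µg/ml 15 of 31 lower and 3 of 6 higher did so, and between the doses 2 of 11 lower and 2 of 8 higher. The share of all called genes that stayed called was not computed, so these counts have no background. With 2 libraries per group and low counts, EIF4E3, EEF1D and the methyltransferase genes are the least certain.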

Other observations

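Genes around the translation factors, taken from lists chosen with earlier results of these data known, were read from the same edgeR fit. At 150 µg/ml 25.8% of all genes rose and 25.7% fell, 51.5% in all. Among genes with a mean of 50 CPM or more, 25.2% rose and 47.1% fell. Many of the listed genes lie above that level, and the counts that follow are read against both sets of shares. Among the 6 genes of EIF2 dephosphorylation and the integrated stress response, 4 rose and 1 fell at 150 µg/ml against DMSO. PPP1R15A, the subunit that directs a phosphatase to EIF2 alpha, had 625 and 531 CPM at 150 µg/ml against 294 and 268 CPM in DMSO (log2 fold change 1.04, adjusted p = 5.04e-10, edgeR quasi-likelihood F-test, Benjamini-Hochberg adjusted). DDIT3, the transcription factor CHOP, had 28.2 and 26.7 CPM at 150 µg/ml against 9.46 and 12.8 CPM in DMSO (1.31, adjusted p = 2.31e-07).

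Of 19 tested genes of the mTORC1 and MNK arm, 9 rose and 3 fell at 150 µg/ml. SESN2, a leucine-sensing inhibitor of mTORC1, had 15.8 and 15.4 CPM under DMSO, 47.4 and 47.3 CPM at 75 µg/ml and 122 and 106 CPM at 150 µg/ml, a log2 fold change of 2.87 at 150 µg/ml (adjusted p = 7.38e-14, the same edgeR test). DDIT4, another mTORC1 inhibitor, rose by 1.45, PDCD4, an inhibitor of the EIF4A helicase, by 1.18, and SESN3 by 1.29 at 1.44 to 4.53 CPM. Among 7 poly(A)-binding protein genes 3 rose and 3 fell, and PABPC1L rose by 1.37.

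The other lists had these counts at 150 µg/ml. Reinitiation and start-site helpers had 5 lower and 1 higher of 7, release and recycling factors 3 lower and 1 higher of 6, diphthamide and hypusine enzymes 2 lower and 2 higher of 9 and mitochondrial translation factors 2 lower of 8. Members known for TOP mRNAs had 5 lower of 9 (median -0.21, and -0.03 under total counts).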
